A study of Mus musculus with 2 samples.

Results

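The clustered protocadherins are 3 neighbouring gene families, Pcdha, Pcdhb and Pcdhg, that encode cell adhesion proteins best known from neurons. Their CTCF-bound regions were taken from 1 ChIP-seq library (chromatin immunoprecipitation followed by sequencing) of CD4+CD8+ (double-positive, DP) thymocytes. The file lists 25-bp windows that the authors placed in peaks, and windows that touch were joined into regions. A region was kept if its midpoint lay between positions 36900000 and 38100000 of chromosome 18 (mouse build mm9), a stretch of 1.2 Mb that spans the clusters. This gave 55 of the 51660 regions on the 19 autosomes and the X. The mice were C57BL/6, 4 to 8 weeks old, Rag1 -/- and carried a TCRbeta transgene, so their endogenous T cell receptor genes cannot rearrange and thymocytes pass to the DP stage by way of the transgene. Both libraries, CTCF and input DNA, came from this background, so no Rag1-sufficient control was measured. Whether cells of several mice were pooled is not given in the sources used here, and the input library was not analysed here. A list of bound positions holds no expression, so the DP label was not checked against markers.

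In each protocadherin cluster the alternative first exons or single-exon genes stand in tandem, and most carry a promoter of their own. The variable exons of Pcdha and Pcdhg are spliced to constant exons shared within the cluster, whereas each Pcdhb gene is complete in 1 exon. CTCF, a zinc-finger DNA-binding protein that works with cohesin to anchor chromatin loops, is known to bind a conserved element in most of these promoters and to link them to distant enhancers. In neurons this takes part in the choice of which few isoforms a cell expresses. DNA methylation, which was not measured here, is known to hinder CTCF at such promoters.

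The gene order is background from a RefSeq table of another build (GRCm38), from which names, numbers and neighbours were used and no position. It lists 14 Pcdha genes, from Pcdha1 to Pcdhac2, then 22 Pcdhb genes, from Pcdhb1 to Pcdhb22, then Slc25a2 and Taf7, then 22 Pcdhg genes including 1 pseudogene, from Pcdhga1 to Pcdhgc5. Hars2 and Zmat2 come before Pcdha1, and Diaph1 and Hdac3 come after Pcdhgc5. No mm9 annotation was used, so no region was assigned to a gene, exon or promoter. The window was divided at positions 37400000 and 37750000, rounded bounds from general knowledge, into a low part for alpha, a middle part for beta and a high part for gamma. These parts include sequence beside the clusters.

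The file gives positions only, with no height, read count or score, so the depth is unknown and width is the one quantity measured per region. There was 1 CTCF library, so no replicate and no test between groups could be had. Intervals below are exact 95% intervals that cover counting error only and treat regions as independent.

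CTCF regions were unevenly placed along the window. The alpha part held 16 regions in 500 kb, the beta part 6 in 350 kb and the gamma part 33 in 350 kb. This corresponded to 32.0 regions per Mb in alpha (Poisson interval 18.3 to 51.97), 17.1 in beta (6.29 to 37.3) and 94.3 in gamma (64.9 to 132). The intervals of beta and gamma did not overlap, and neither did those of alpha and gamma, while those of alpha and beta did. Divided instead at the 2 longest empty stretches of the window, the numbers were 4, 18 and 33, since the first of these stretches lies below most alpha regions. The density over all chromosomes was 19.6 per Mb. For the whole window it was 45.8 per Mb (34.5 to 59.7), against 14.8 on the rest of chromosome 18. The stretches of equal length on either side were also rich in regions, with 85 below the window and 52 above it. Of 2190 tiles of 1.2 Mb laid end to end over the genome, 11.3% held at least 55 regions, so the number of regions in the window was high but not rare.

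**Figure D1:**
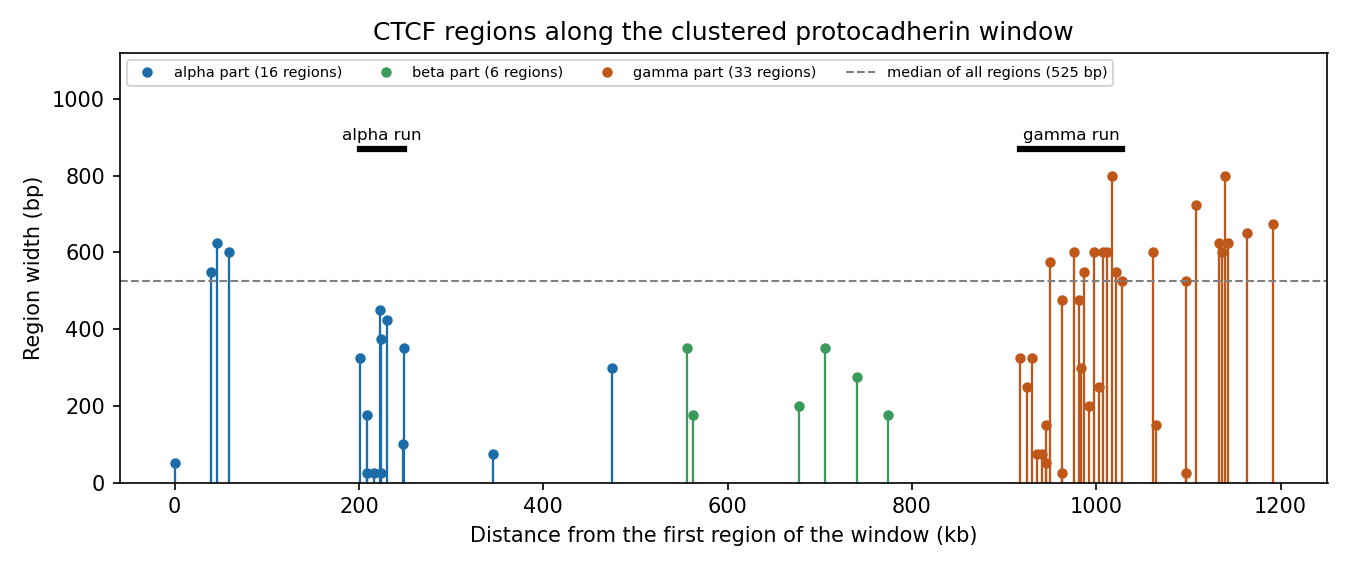
Width of each of the 55 CTCF regions (y axis, bp) against its distance from the first region of the window (x axis, kb), coloured by alpha, beta and gamma part. Black bars mark the 2 runs of closely spaced sites, and the dashed line is the median width of all 51660 regions, 525 bp. Narrow regions fill the stretch from the alpha run to the start of the gamma run, and regions near 600 bp stand at both ends of the window.

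Regions of the window were narrower at the median than those of the genome, and narrowest from the alpha run to the beta part. Over all 55 regions the median width was 350 bp (interval 250 to 525 bp) and the mean 370 bp (SD 232 bp across regions), against a median of 525 bp over all regions, where 48.2% were narrower than that median. In the window 34 of 55 (61.8%) were narrower. The interval of the window's median reached the genome value, so the difference for the window as a whole was at the limit of what 55 regions can show. With regions at most 200 bp apart joined, the window's median was 475 bp. Without regions of at most 75 bp it was also 475 bp. The 525 bp of the genome is for regions before such changes, and the genome median after the same changes was not computed. How much of the difference short pieces made up therefore cannot be read from these values. Of the 1004 tiles with 20 or more regions, 5.88% had a median width of 350 bp or less. The stretches of equal length below and above the window had medians of 550 and 512.5 bp, and the rest of chromosome 18 had 525 bp.

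Width differed by place within the window. All 18 regions from the first of the alpha run (position 37105557) to the last of the beta part (37678006) were narrower than 525 bp, with a median of 237.5 bp (interval 100 to 350 bp). Both ends of the window went the other way. The 4 regions below the alpha run had a median of 575 bp and the 11 above the gamma run a median of 625 bp, and 3 of these 15 were narrower than 525 bp. The division at the runs was made after the widths were seen, and these counts are a description.

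**Figure D2:**
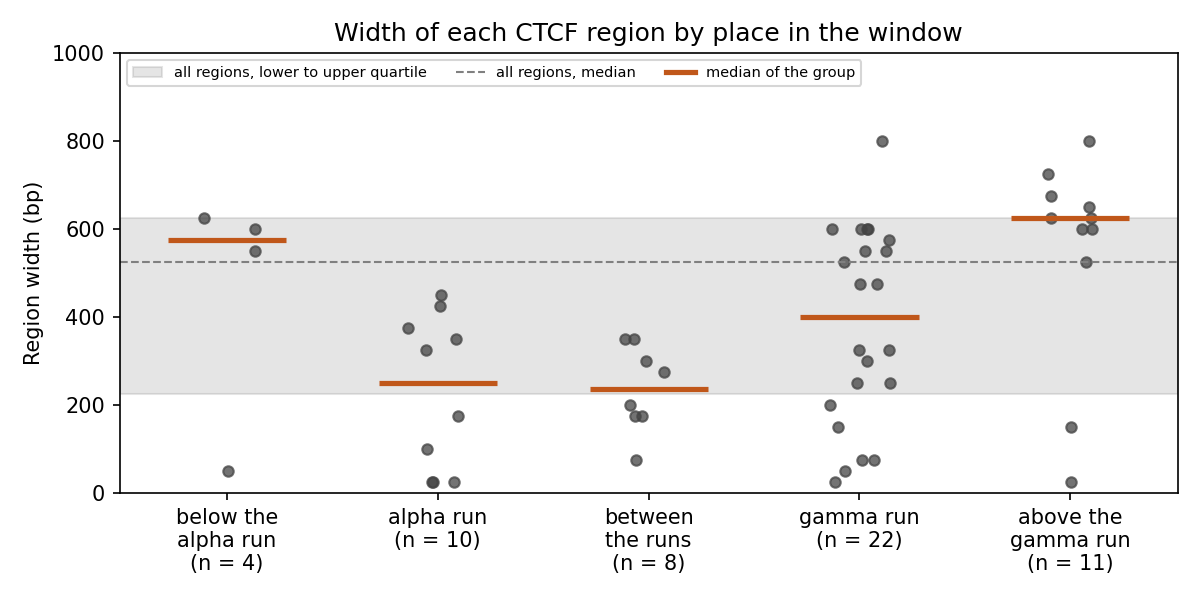
Width of each CTCF region (y axis, bp) in 5 successive stretches of the window (x axis, low to high coordinates). Points are regions, orange lines are medians (575, 250, 237.5, 400 and 625 bp), and the grey band spans the quartiles of all regions, 225 to 625 bp. The alpha run and the stretch between the runs have no region as wide as the dashed genome median.

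The most frequent width of the library, 625 bp, was not found from the alpha run to the gamma run. Of all regions, 22.0% were 625 to 675 bp wide. From the alpha run to the gamma run 0 of 40 regions were in this range. An approximate upper limit of the share, taken as 3 counts of 40, was 7.5%, which is not an exact interval. In the same 40 regions the median was 312.5 bp (interval 200 to 375 bp) and 31 were narrower than 525 bp. Above the gamma run 4 of 11 regions were in the range of 625 to 675 bp, and below the alpha run 1 of 4. This range was chosen after the widths were seen, and the result depends on its lower edge. In the class just below it, 550 to 600 bp, the same stretch held 7 of 40 regions (17.5%), against 18.0% of all regions.

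**Figure D3:**
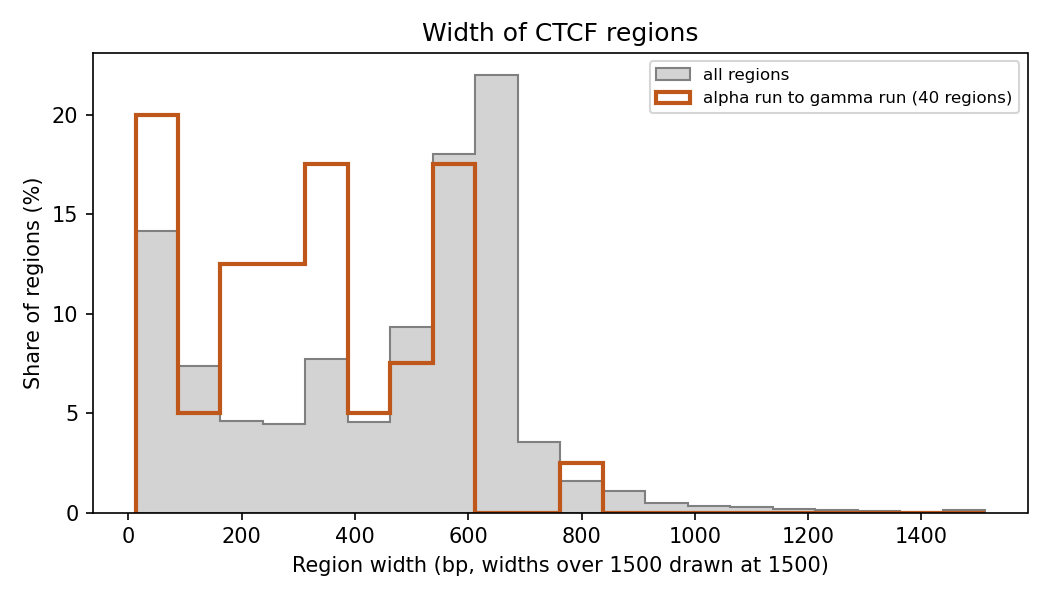
Share of regions (y axis, percent) by width (x axis, bp, in classes of 75 bp) for all regions (grey) and for the 40 from the alpha run to the gamma run (orange). The grey peak just above 600 bp has no orange counterpart, and the orange line is above the grey between about 150 and 400 bp.

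Very short regions were about as frequent as elsewhere. Regions of at most 75 bp numbered 10 of 55 (18.2%, interval 9.08 to 30.9%), against 14.1% of all regions, which lies inside that interval. They were 5 of 16 in the alpha part, 0 of 6 in the beta part and 5 of 33 in the gamma part. Of the 54 gaps between neighbouring regions, 7 (13.0%) were at most 200 bp, against 9.85% genome-wide. Regions that close may be pieces of 1 bound site, so they were joined into sites before distances were measured. The 55 regions made 48 sites, 6 of which had more than 1 piece.

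In the alpha part, set to hold the Pcdha genes, a run of 6 sites, made of 10 regions each narrower than 525 bp, lay between long stretches without any region. The part began with 1 of 50 bp at 36904032. It was followed by 3 wide ones, starting at 36943107 (550 bp), 36949682 (625 bp) and 36962382 (600 bp). These 3 lay 6.61 and 12.7 kb apart and were wider than the genome median, like most regions at the other end of the window. Then no region was listed for 142.6 kb (36962982 to 37105556).

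The alpha run followed, from 37105557 to 37152806, and held 10 regions in 47.25 kb. Its first region was 325 bp wide (37105557 to 37105881). The second site was a pair of pieces of 25 bp (37112757 to 37112781) and 175 bp (37112807 to 37112981). The third was a single window of 25 bp (37120457 to 37120481), the smallest size the file can hold. The fourth site was the broadest of the run, with pieces starting at 37127007 (450 bp), 37127582 (375 bp) and 37128082 (25 bp) that together spanned 1100 bp. The fifth was 425 bp wide (37133832 to 37134256), and the last had pieces of 100 bp (37152332 to 37152431) and 350 bp (37152457 to 37152806).

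The first 5 of the 6 sites of the alpha run were about evenly placed, a subset picked after the positions were seen. Midpoints of neighbours lay 7.15, 7.6, 7.09 and 6.49 kb apart, and the sixth site followed after 18.5 kb. The median distance over the 5 intervals was 7.15 kb, and their coefficient of variation (SD divided by mean) was 0.548. The steps to and from the third site rest on its single window of 25 bp. The evenness of the alpha run was not compared with that of other runs. A run holds only neighbours at most 20 kb apart, a rule set after the positions were seen. Runs of 10 or more sites made by it had a typical median distance of 6.34 kb, so 7.15 kb was not short for a run. The 6 sites compare with 12 Pcdha genes that are not of the C type, so the run held fewer sites than such genes. The C-type genes, here Pcdhac1 and Pcdhac2, lie at the far end of the cluster. The whole alpha part held 12 sites, and no site was matched to a gene.

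Beyond the alpha run CTCF regions became sparse. The stretch from 37152807 to 37249581 (96.8 kb) was empty. A region of 75 bp followed (37249582 to 37249656), then another empty stretch of 128.3 kb (37249657 to 37377981) and a region of 300 bp (37377982 to 37378281). These were the last of the alpha part. As background, the shared alpha constant exons and known alpha enhancers lie at the high end of the Pcdha cluster, but which of these regions lies near them was not examined.

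The beta part, set to hold the Pcdhb genes, was the sparsest and its regions were uniformly narrow. The first 2 regions, starting at 37460307 and 37466957, were 350 and 175 bp wide. The next 2, starting at 37580907 and 37609432, were 200 and 350 bp wide. The last 2, starting at 37644357 and 37677832, were 275 and 175 bp wide. The median was 237.5 bp (interval 175 to 350 bp), and no region reached 525 bp. Covered bases were 1525 in 350 kb, or 0.436%, against 0.865% over all chromosomes.

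Spacing in the beta part showed no tight array. The first 2 regions lay 6.56 kb apart, followed by an empty 113.8 kb (37467132 to 37580906), and the other 4 stood 28.6, 34.9 and 33.4 kb apart. The median of the 5 distances was 33.4 kb, longer than the 16.5 kb of the genome. The 6 regions compare with 22 Pcdhb genes of the gene table, fewer listed regions than genes, and no region was matched to a gene.

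An empty stretch of 143.1 kb (37678007 to 37821106), the longest of the window, separated the beta part from the gamma part. Of the 47 distances between neighbouring sites of the window, 4 (8.51%) were over 100 kb, close to the 9.71% of all neighbouring sites. The 4 empty stretches over 100 kb took up 527.8 kb, or 44.0% of the window.

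The gamma part, set to hold the Pcdhg genes, opened with the longest run of the window. This run of 20 sites (22 regions) extended from 37821107 to 37932031, 110.9 kb in all. The run is defined by neighbouring midpoints at most 20 kb apart, a rule set after the positions were seen. The median distance was 5.2 kb (quartiles 4.55 and 5.875 kb, mean 5.82 kb, SD 2.76 kb over 19 distances). Of these 19 distances, 14 (73.7%) were between 4 and 7 kb, a range also chosen after seeing them. Of the 4101 distances within the 341 runs of 10 or more sites that the same rule gave over the genome, 19.7% were in this range. The typical median distance of these runs was 6.34 kb, inside the same range, so a median of 5.2 kb was not unusual for a run. The gene table lists 19 Pcdhg genes that are not of the C type, pseudogene included, and 3 C-type genes. The number of sites in the run depended on its rules. It was 18 without regions of at most 75 bp, 22 with sites made at a gap of 0 bp and 8 with only regions of at least 525 bp. The whole gamma part held 30 sites. No site was matched to a gene.

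The 5 distances outside that range fell at 2 places and at the start. The first site, 325 bp wide (37821107 to 37821431), was 7.11 kb from the second. The eighth site, of 525 bp in 2 pieces that start at 37866382 and 37866882, stood 12.7 kb after the seventh and 13.3 kb before the ninth, of 600 bp (37879657 to 37880256). Then 3 sites stood close together, starting at 37885057 (475 bp), 37887507 (300 bp) and 37890282 (550 bp), at distances of 2.36 and 2.9 kb. The first 2 of them formed the only pair of sites in the window with midpoints at most 2.5 kb apart (1 of 47 distances, 2.13%), compared with 10.9% of all neighbouring sites. A count of 1 is too small to call the share lower. With edge-to-edge distances the gamma part held 4 such pairs. The last 10 sites of the run were the more regular, with distances of 2.9 to 6.26 kb and 8 of 9 between 4 and 7 kb.

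**Figure D4:**
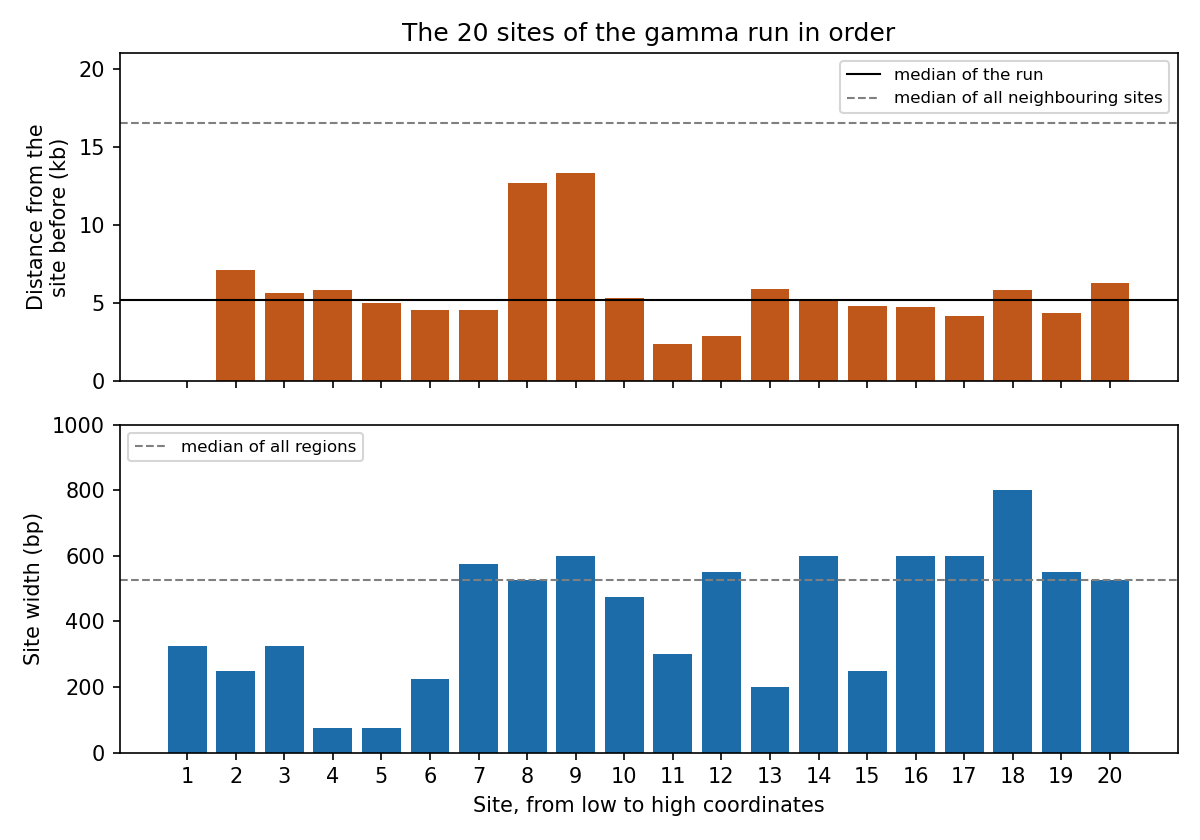
The 20 sites of the gamma run in order. The upper bars give the distance of each site from the site before (kb), with the run's median of 5.2 kb (solid) and the 16.5 kb of all neighbouring sites (dashed), which unlike the run are not limited to 20 kb, and the lower bars give site width (bp) with the 525 bp median of all regions (dashed). Distances are similar along most of the run, except near the eighth to twelfth sites, and the first 6 sites are narrower than most of the rest.

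The spacing was even but was not a fixed period. A straight line through the 20 midpoints gave a step of 5.86 kb per site, and the midpoints departed from that line by an SD of 4.09 kb and by up to 9.19 kb, more than 1 step. The coefficient of variation (SD divided by mean) of the 19 distances was 0.475. The same rule applied to the whole genome gave 341 runs of 10 or more sites, with a median coefficient of 0.697, and 2.05% of them (7, the gamma run included) were at or below 0.475. The 6 runs with more even spacing had 10 to 17 sites. Among the 21 runs of at least 20 sites the gamma run had the lowest coefficient, and their median was 0.730. Its place depended on how sites were made. Without regions of at most 75 bp its coefficient was 0.571, and 18.0% of 256 runs were at or below it. With sites made at a gap of 1000 bp, its coefficient was the same and 12.5% of 255 runs were at or below it. The run was singled out for its spacing, so its place among the others is a description.

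**Figure D5:**
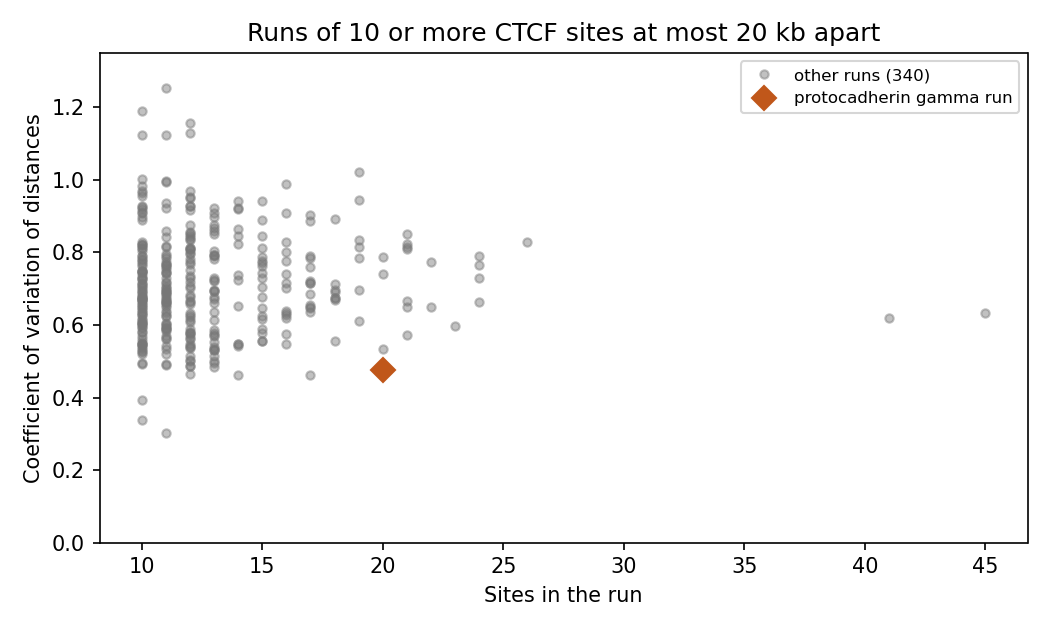
Coefficient of variation of the distances between neighbouring sites (y axis) against the number of sites (x axis) for 341 runs of 10 or more CTCF sites at most 20 kb apart. Each grey point is a run and the orange diamond is the protocadherin gamma run, at 20 sites and 0.475, the lowest of the runs with at least 20 sites.

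Over the whole parts, surroundings included, the spacing was less even than in the gamma run. The coefficient of variation was 1.23 in alpha, 0.943 in beta and 0.980 in gamma. For runs of as many neighbouring sites anywhere in the genome the medians were 1.07, 0.934 and 1.26, and the shares of runs at or below the parts' values were 67.2%, 51.1% and 18.1%.

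Widths changed along the gamma run. The lower 10 sites had a median of 325 bp (range 75 to 600 bp), and 7 of them were narrower than 525 bp. The upper 10 had a median of 550 bp (range 200 to 800 bp), and 3 were narrower. These are widths of joined sites, whereas 525 bp is the median of unjoined regions. Counted as regions, 10 of 12 in the lower stretch and 3 of 10 in the upper were narrower than 525 bp. The first 6 sites, up to 37849531, were 75 to 325 bp wide, as narrow as those of the beta part, whereas the widest of the run was 800 bp (37920782 to 37921581). Taken as sites, the run had a median width of 500 bp, and 22.3% of the 341 runs had a median at or below it, so the gamma run as a whole was not unusually narrow.

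Above the run the gamma part held 11 regions, most of them at least as wide as the genome median. After an empty 33.6 kb came a region of 600 bp starting at 37965657, with one of 150 bp (from 37968532) 2.65 kb away. After a further 32.2 kb followed pieces of 25 and 525 bp, from 38000832 and 38000882, and then a region of 725 bp (38011582 to 38012306). A compact group of 4 regions lay between 38036832 and 38047131, with widths of 625, 600, 800 and 625 bp and midpoints 2.91, 3.25 and 3.51 kb apart. The 800 bp region of this group (38042907 to 38043706) tied with that of the gamma run as the widest of the window. The last 2 regions were 650 bp (38067532 to 38068181) and 675 bp (38094982 to 38095656).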

How the data were processed

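Thymocytes were fixed in 1% formaldehyde (10 minutes) and sonicated, and library fragments of about 200 to 250 bases were cut from a gel, per the labels' protocols. The submitters' processing notes name Bowtie and the build mm9. No version, peak caller, threshold, use of the input or treatment of reads with several matches is given in the sources used here. The authors' deposited file lists 912174 windows of 25 bp as chromosome, start and end.

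Starts were read as counted from 0, and printed positions count from 1. Windows were joined at a gap of 0 bp, and the single mitochondrial region was left out. Sites were regions at most 200 bp apart joined together, and distances run between midpoints. Intervals are exact Poisson for counts, exact binomial (Clopper-Pearson) for shares and from exact binomial ranks for medians. In the alpha and beta parts every region is named. In the gamma part the rule names the first, the last, the 5 widest, close pairs and the ends of the 3 longest gaps, and the other positions given there were chosen after their values were seen. The members and lists were chosen with earlier results of these data known. Alternatives were other joining gaps, width filters, part bounds and distance measures. A planned count of CTCF motif letters in protocadherin promoters was not run, because the promoter set at hand held none of those promoters, and no sequence is printed. The joining and spacing steps were tested on simulated data. The tools were matplotlib 3.10.9, pandas 2.3.3, NumPy 2.4.6 and SciPy 1.17.1, run in Python 3.11.15.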

Additional observations from a re-analysis of the deposited data

How the results depend on the processing

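For 24 results, 188 values were recomputed under alternatives. Of these, 165 stayed inside the main value's exact interval, or within 1.5 times it for counts and spreads, and 23 moved. The 165 do not measure robustness, because some alternatives changed none of these values. Among them were any base in the window and sites made at a gap of 1000 bp. Joining close regions changed nothing in beta. Wide intervals also kept values inside. The median distance in alpha, 12.7 kb, was 7.05 kb at a gap of 0 bp, inside 6.61 to 128.5 kb. The window's median width, 350 bp, was 475 bp with regions at most 200 bp apart joined, inside 250 to 525 bp. Keeping only regions of at least 525 bp, which removes narrow ones by construction, left 21 regions in the window (3 in alpha, 0 in beta, 18 in gamma), with a median width of 600 bp in the window and 600 bp in alpha and a short share of 0%. It also left 8 sites in the gamma run, 6.26 kb apart at the median. Leaving out regions of at most 75 bp sets the short share to 0% by construction. Dividing the parts at the 2 longest gaps put 4 regions in alpha (median width 575 bp) and 18 in beta, since the first of these gaps lies below the alpha run. The interquartile range of distances in alpha, 61.1 kb, was then 16.4 kb, with 3 equal parts 27.0 kb, and with sites made at a gap of 0 or 100 bp 25.6 and 32.7 kb. In beta, 6.29 kb became 40.7 kb with 3 equal parts and 75.2 kb at the longest gaps. Close pairs rose from 0 to 4 in alpha and from 1 to 4 in gamma with sites made at a gap of 0 bp, since pieces then count as pairs, to 2 in alpha at 100 bp, and to 4 in gamma with edge-to-edge distances. The rules for the gamma run and their alternatives were chosen after seeing the data. Its coefficient of variation was 0.398 to 0.587 under these 6 alternatives, within 1.5 times 0.475. The share of runs at or below it, 2.05%, was 4.38% and 1.61% with neighbours at most 15 or 30 kb apart, 2.90% at a gap of 0 bp, 12.5% at 1000 bp and 18.0% without regions of at most 75 bp, and among runs at least as long it ranked first or second. With regions of at least 525 bp it had under 10 sites and was not compared. No paired analysis was possible because only 1 CTCF library was analysed. The file gives no heights or depth, and neither the peak threshold nor the treatment of reads with several matches is given. An unlisted position may therefore be weakly bound, unbound or not readable.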
